A study of Rattus norvegicus with 325 samples.

Results

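The gastrocnemius, the large calf muscle of the hind limb, was compared between middle-aged and young adult rats. Its members were the 11 gastrocnemius libraries of 18 months and the 10 of 6 months, chosen by the muscle and age in the sample titles, 21 of the 325 libraries of the series. Every library came from a male rat of the outbred Sprague Dawley stock. The rats had received no treatment, were bought from Envigo, aged there and moved to the study's facility some weeks before they were killed. The series sampled 4 muscles at 7 ages by bulk sequencing of total RNA after removal of ribosomal RNA, and raw counts per gene were deposited. All rats of one age were killed on a single day between 9am and 1 pm. The effects of age, of that day and of any hour that differed between the groups cannot be told apart. The labels do not tie a library to an animal, and the p-values measure the spread between these libraries.

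Skeletal muscle fibres are long cells that contract when a motor nerve releases acetylcholine at a single patch of their surface, the neuromuscular junction. There the acetylcholine receptor and its partners are kept at high density, while the rest of the fibre silences the same genes. When a fibre loses its nerve, the silenced genes come back on along its whole length, among them the embryonic receptor subunit and the myogenic factors that drive it. Fibres are also divided into fast and slow types with separate sets of sarcomere proteins, and the gastrocnemius is mostly fast. Between the fibres lie capillaries, nerve branches, fibroblasts that make collagen, satellite cells (the stem cells of muscle) and resident macrophages. In bulk RNA, more cells of a type and more RNA per cell cannot be told apart.

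Levels are given as log2 CPM, read counts relative to the library's total, scaled by the trimmed mean of M values, and changes as log2 fold changes with their standard error (SE). A gene was called upregulated or downregulated at an adjusted p under 0.05 (limma-voom, Benjamini-Hochberg over 11865 genes tested) with a change over 1.5-fold. The 18-month libraries held 27671089 to 57708083 counts and the 6-month libraries 26130606 to 85316329, and genes under about 1 CPM rest on few reads. The label was checked by fibre type markers, which can show a mostly fast muscle but not which fast muscle, nor the age. The summed level of 14 fast fibre genes was 185210 to 218680 CPM at 6 months and 156920 to 191590 CPM at 18 months, that of 12 slow fibre genes 9242 to 16443 and 9210 to 17277 CPM, and none of these genes was at 0. The 18-month replicates 3, 5 and 9 had the highest levels of the liver transcripts Alb and Apob of all 21 libraries. They were singled out after the levels were seen, and calls that ended without them are named as such below. Calls that ended when 1 single library was left out are named too, and those that another setting ended or added stand with their values in the section on processing.

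At 18 months, 431 genes (3.63% of those tested) were upregulated and 82 (0.691%) downregulated. These shares are the background for the counts of list members at this step, and no such count was tested against them. The median change of all genes was 0.00. The median size of a called change was 0.85, and 165 of the rises and 18 of the falls exceeded 2-fold. A mean level under 1 CPM, where few reads were counted, was found in 188 of the rises and 31 of the falls. The 2 groups did not overlap in 116 genes (0.978%), of which 91 were called. The first principal component of the 21 libraries carried 44.4% of the variance and was spread within both ages, from -13.2 to 40.8 at 6 months and from -23.7 to 25.5 at 18 months. The second carried 16.4% and separated the ages, with every 6-month library at -3.79 or below and every 18-month library at 3.03 or above.

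**Figure D1:**
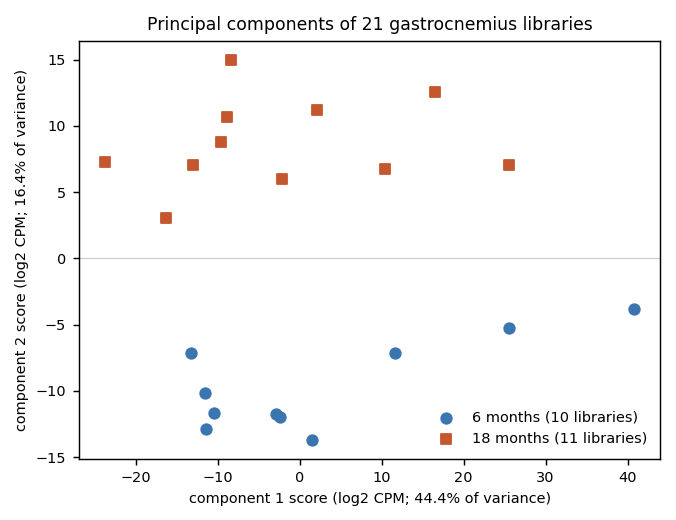
Scores of the 21 gastrocnemius libraries on the first (x axis) and second (y axis) principal component of log2 CPM, over 8522 genes with a mean log2 CPM above 2, with each point 1 library. The 2 ages mix along the first component and separate along the second, where no 6-month library lies above -3.79 and no 18-month library below 3.03.

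The genes of the neuromuscular junction and the response to lost innervation gave some of the largest rises in the muscle. Of 21 tested, 9 were upregulated and none downregulated, with a median change of 0.45. Among acetylcholine receptor subunits, Chrna1 (the alpha subunit, which binds the transmitter) had a lowest, median and highest level of 2.65, 3.01 and 4.10 at 6 months and 3.99, 4.88 and 6.51 at 18 months. All but 1 of the 18-month libraries lay above the highest 6-month library, and the rise was 2.05 ± 0.29 (SE; limma adjusted p = 4.7e-07). Chrnd, the delta subunit, went from 2.96, 3.19 and 3.57 to 4.41, 4.65 and 5.38, a rise of 1.5 ± 0.19 (limma adjusted p = 1.7e-08) with no overlap between the ages. Chrng, the gamma subunit of the embryonic receptor, is nearly silent in innervated adult muscle. It measured -4.18, -1.34 and 0.69 at 6 months, where single libraries held 1 to 56 reads, and 0.04, 1.38 and 2.99 at 18 months. Its rise was 2.90 ± 0.63 (limma adjusted p = 7.5e-04), with 8 of 11 libraries above the 6-month range. The subunit that replaces gamma in the adult receptor, Chrne, measured 3.03, 3.26 and 3.50 at 6 months and 3.05, 3.22 and 3.37 at 18 months. Its groups overlapped throughout (change -0.01 ± 0.14, limma adjusted p = 0.981), and Chrnb1, the beta subunit, changed by 0.18 ± 0.06, under the 1.5-fold limit.

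The promoters of the 3 receptor genes that rose are shown because myogenin and related factors bind E-boxes in DNA, and 2 forms of that motif, CAGCTG and CACCTG, were searched on both strands (CACCTG therefore also as CAGGTG). They are RefSeq sequences of build GRCr8, a later build than that of the counts, and run from 250 bases before to 50 bases after each gene's start, 5′ to 3′ on the gene's strand. Chrna1 is at chr3:78877304-78877603 (minus strand), Chrnd at chr9:95310066-95310365 and Chrng at chr9:95325734-95326033 (both plus strand). Capitals mark the motifs.
Chrna1: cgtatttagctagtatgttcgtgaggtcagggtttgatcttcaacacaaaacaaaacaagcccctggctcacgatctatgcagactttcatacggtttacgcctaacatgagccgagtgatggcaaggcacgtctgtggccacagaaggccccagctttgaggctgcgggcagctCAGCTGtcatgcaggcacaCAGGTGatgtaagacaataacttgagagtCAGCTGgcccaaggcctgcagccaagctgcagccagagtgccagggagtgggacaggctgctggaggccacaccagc
Chrnd: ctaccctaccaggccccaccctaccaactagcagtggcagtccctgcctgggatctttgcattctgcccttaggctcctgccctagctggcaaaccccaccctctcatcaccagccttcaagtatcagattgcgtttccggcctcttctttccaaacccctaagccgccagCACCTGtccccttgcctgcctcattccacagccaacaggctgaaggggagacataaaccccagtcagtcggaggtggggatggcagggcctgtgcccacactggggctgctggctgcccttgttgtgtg
Chrng: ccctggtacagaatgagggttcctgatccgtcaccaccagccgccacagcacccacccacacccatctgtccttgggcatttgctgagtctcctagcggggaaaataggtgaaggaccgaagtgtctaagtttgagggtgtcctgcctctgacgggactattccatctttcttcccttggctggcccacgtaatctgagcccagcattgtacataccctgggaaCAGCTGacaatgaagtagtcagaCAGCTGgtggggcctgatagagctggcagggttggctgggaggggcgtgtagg
CAGCTG occurred 2 times each in the windows of Chrna1 and Chrng and not in that of Chrnd, while CACCTG occurred once each in those of Chrna1 and Chrnd. Of all 33469 promoters of this length, 15.1% held CAGCTG and 18.8% held CACCTG. A promoter was found for 16 of the 21 tested genes of the list, of which 7 held CAGCTG and 4 held CACCTG. The motifs were chosen after the changes were known, and a match is a description of the letters only.

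Other genes that denervated fibres switch on rose with the receptor. Runx1, a transcription factor induced by loss of the nerve, moved from 3.39, 3.78 and 4.05 at 6 months to 4.86, 5.39 and 6.48 at 18 months (change 1.80 ± 0.23, limma adjusted p = 2.5e-08). Myog, or myogenin, moved from 4.01, 4.30 and 4.58 to 4.70, 5.38 and 5.95 (change 1.11 ± 0.18, limma adjusted p = 1.2e-05). Neither of these genes had overlapping groups, and the same held for Gadd45a, Musk and Ncam1. Gadd45a, a stress gene that denervation induces, rose by 1.70 ± 0.27, Musk, the receptor kinase that gathers acetylcholine receptors, by 1.32 ± 0.24, and the adhesion molecule Ncam1 by 1.03 ± 0.16 (limma adjusted p = 9.6e-06, 6.0e-05 and 3.6e-06). The structural genes of the junction did not pass. Agrn (agrin, the nerve signal that builds it) changed by -0.16 ± 0.04, Lrp4 (the agrin receptor) by -0.06 ± 0.07, Rapsn (rapsyn, which anchors the receptor) by 0.03 ± 0.06 and Ache (acetylcholinesterase) by -0.01 ± 0.10. Hdac4, the deacetylase that relays denervation to the nucleus, had levels of 5.28, 5.63 and 5.84 and 5.83, 6.06 and 6.72. Its change of 0.58 ± 0.14 lay just under the fold limit (limma adjusted p = 0.0031), although 10 of 11 libraries exceeded the 6-month range. It passed under 22 alternatives, among them edgeR, DESeq2 and both other scalings, with changes of 0.59 to 0.68.

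The 18-month libraries differed among themselves in these genes. The highest Chrna1 levels, 5.82 and above, were those of replicates 3, 5 and 9, the libraries highest in liver transcripts, whose part in the result was not tested. Without these 3 libraries, all 9 genes of the list remained called, with smaller changes for the receptor genes of the alpha and gamma subunits and for Runx1. Chrna1 rose by 1.69, Chrng by 2.56 and Runx1 by 1.56 (limma adjusted p = 4.7e-05, 0.00549 and 5.4e-06).

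**Figure D2:**
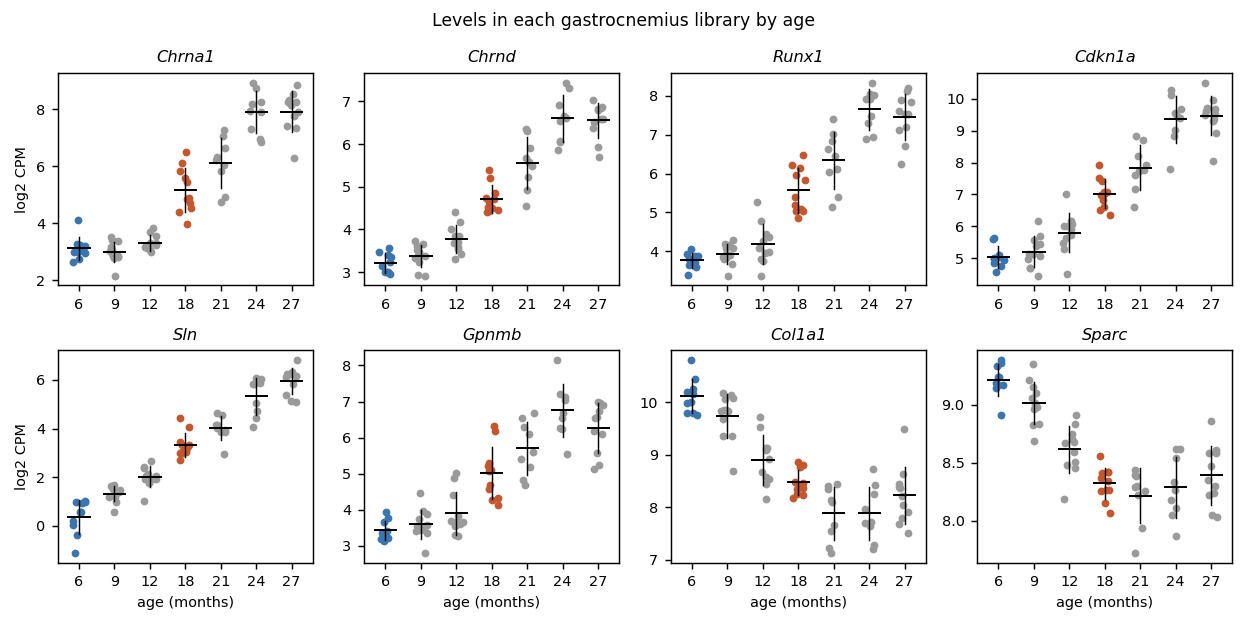
Log2 CPM (y axis) of 8 genes in each gastrocnemius library at 7 ages in months (x axis), with 6 months in blue, 18 months in orange and the other ages in grey. Black bars are the mean and 1 SD. Chrna1, Chrnd, Runx1 and Cdkn1a are higher at 18 months and higher again at 24 and 27 months, Sln rises at each step from 6 months, and Col1a1 and Sparc are already lower at 12 months.

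Sarcomere genes of the embryo and of myoblast fusion gave 4 upregulated of 6 tested, against 3.63% of all genes, with a median of 1.00. Myl4, the embryonic and atrial myosin light chain, went from -0.17, 0.61 and 2.27 to 1.07, 2.74 and 3.31 (change 1.51 ± 0.38, limma adjusted p = 0.0037). The others were Tmem8c, or myomaker, which fuses myoblasts (1.38 ± 0.41), Actc1, or cardiac actin (1.01 ± 0.23), and Myh3, or embryonic myosin (0.84 ± 0.27). Not called were Myh8, or perinatal myosin, which changed in the other direction (-0.23), and Tnnt2 (0.99). In all 4 called genes 7 or 8 of the 11 libraries of 18 months lay above the 6-month range and the others within it. Without the 3 libraries high in liver transcripts, Tmem8c and Myh3 were no longer called, and Myh3 also without the 6-month replicate 5 alone (limma adjusted p = 0.0862 and 0.106). Myf5, a factor of satellite cells and myoblasts, rose by 0.74 ± 0.21 (limma adjusted p = 0.0109) and was the 1 called gene among 20 of satellite cells and Notch signalling, a call that ended without the same 3 libraries (limma adjusted p = 0.0802). Pax7, the defining satellite cell factor, had levels of 1.24, 1.56 and 1.85 and 1.15, 1.40 and 1.88 with a change of -0.09 ± 0.12.

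The contractile type of the muscle moved little. None of 14 fast fibre genes was called, and all 14 changes were below 0, with a median of -0.18 that was -0.08 when libraries were scaled by their total counts. Myh4, the fastest myosin and the main one of this muscle, measured 15.30, 15.54 and 15.91 at 6 months and 15.17, 15.44 and 15.97 at 18 months (change -0.05 ± 0.19, limma adjusted p = 0.920). Myh7, the slow myosin, measured 12.43, 12.74 and 13.34 and 12.52, 13.08 and 13.39 (change 0.17 ± 0.18, limma adjusted p = 0.598). Both genes overlapped over most of their range, and so did Myh2, a myosin of intermediate fibres (-0.40 ± 0.20). Among 12 slow fibre genes only Sln was called. Sarcolipin, its product, is a small regulator of the calcium pump of the sarcoplasmic reticulum. Sln measured -1.12, 0.55 and 1.02 at 6 months and 2.71, 3.22 and 4.42 at 18 months, with no overlap and a rise of 2.90 ± 0.36 (limma adjusted p = 1.5e-08). The pump of fast fibres, Atp2a1, changed by -0.31 ± 0.13 (limma adjusted p = 0.0987).

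Some cell cycle inhibitors rose. Of 18 genes of cyclin-dependent kinase inhibition and growth arrest, 5 were upregulated, with a median of 0.25. Cdkn1a, which encodes the inhibitor p21, went from 4.55, 4.99 and 5.63 to 6.35, 7.01 and 7.92, a rise of 1.97 ± 0.23 (limma adjusted p = 7.3e-09) with no overlap. Cdkn2b (p15) rose by 1.09 ± 0.21 and Cdkn2a (p16 and p19Arf) by 2.22 ± 0.58 (limma adjusted p = 1.5e-04 and 0.0059). Cdkn2a stood at the limit of detection, with 12 reads in the 10 libraries of 6 months together, 4 of them at 0, and 80 reads in the 11 of 18 months, so its fitted change depends on the prior count. Bbc3 (Puma, which promotes apoptosis) rose by 0.68 ± 0.23. The Bbc3 call ended without the 3 libraries and when single libraries were left out. None of 28 proliferation genes was called (median 0.12), Aurkb and Kif20a included, which changed by 0.46 ± 0.31 and 0.43 ± 0.31.

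**Figure D3:**
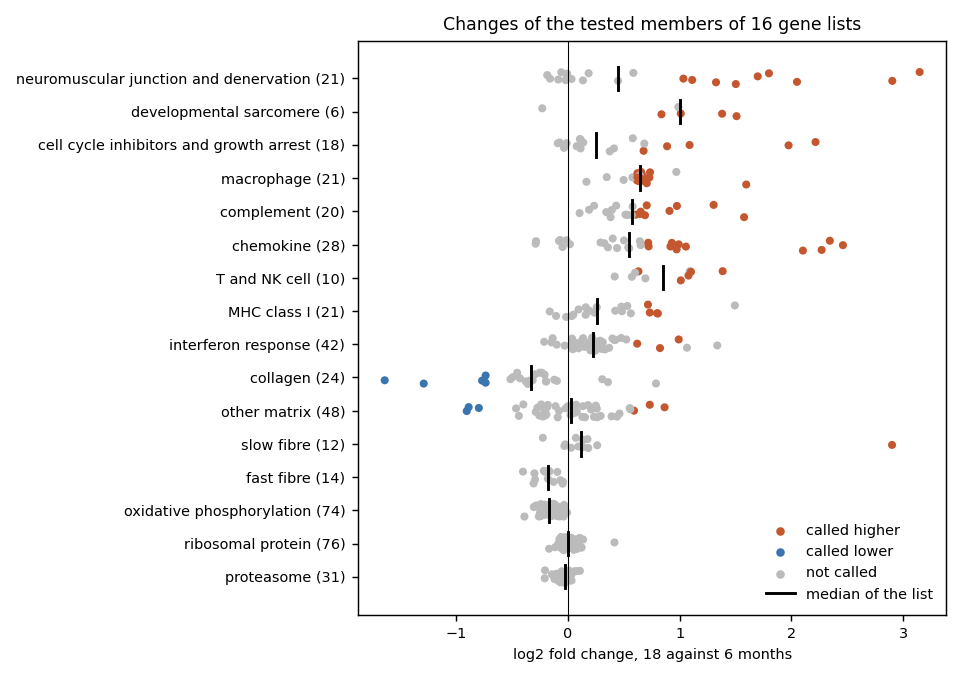
Log2 fold change at 18 against 6 months (x axis) of the tested members of 16 gene lists (y axis, number tested in brackets), with each point 1 gene and the black bar the median of the list. Called rises stand out in the neuromuscular junction list (9 of 21) and the macrophage list (15 of 21), called falls in the collagen list (5 of 24), and no gene is called in the fast fibre, oxidative phosphorylation, ribosomal protein and proteasome lists.

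Macrophage genes were the most uniformly raised cell type list. Of 21 tested, 15 were upregulated and none downregulated, with a median of 0.64 and all 21 changes above 0. The summed level of the list was 164 to 248 CPM at 6 months and 254 to 399 CPM at 18 months, without overlap, and none of its genes was at 0. Gpnmb, a lysosomal glycoprotein of lipid-laden macrophages, went from 3.15, 3.35 and 3.94 to 4.14, 5.08 and 6.34 (change 1.59 ± 0.28, limma adjusted p = 4.1e-05) with no overlap. Folr2, the folate receptor of resident macrophages, went from 1.52, 1.78 and 2.18 to 2.21, 2.52 and 2.83 (change 0.73 ± 0.12, limma adjusted p = 1.3e-05), also with no overlap. Apart from Gpnmb, the 14 other called macrophage genes rose by 0.62 (Cd68, a lysosomal marker near the fold limit) to 0.73 (Folr2), and the Cd68 call ended without any one of 4 single libraries. Lyz2 (lysozyme) was 0.69 ± 0.13 higher, Adgre1 (F4/80) 0.66 ± 0.14, Aif1 0.73 ± 0.15 and Msr1 (a scavenger receptor) 0.70 ± 0.15. The general leukocyte regulator Ikzf1 rose by 0.69 ± 0.16 (limma adjusted p = 0.0012).

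Complement, the cascade that tags cells for phagocytes, rose with them. Of 20 tested, 9 were upregulated and none downregulated, with a median of 0.57. The starter subunits C1qa and C1qb rose by 0.70 ± 0.13 and 0.69 ± 0.15, with limma adjusted p = 1.4e-04 and 6.1e-04. The central component C3 measured -0.44, 0.04 and 0.73 at 6 months and 0.73, 1.14 and 2.11 at 18 months, without overlap (change 1.30 ± 0.33, limma adjusted p = 0.0039). C6, a part of the pore that complement forms, rose by 1.58 ± 0.28 (limma adjusted p = 5.7e-05), with 10 of 11 libraries above the 6-month range. C4a and C4b rose by 0.97 ± 0.18 and 0.91 ± 0.17, but they are near-identical copies whose reads the counting could have split.

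Of 28 chemokines and chemokine receptors, 11 were upregulated and none downregulated, with a median of 0.54. Cxcl13, which draws B cells, measured -5.68, -2.60 and -0.60 at 6 months and -1.86, -0.20 and 1.01 at 18 months (change 2.34 ± 0.54, limma adjusted p = 0.0016). Cxcr6 (a receptor of resident T cells), Ccl22 and Ccl12 rose by 2.10 ± 0.54, 2.27 ± 0.51 and 2.46 ± 0.57 on few reads, 25, 23 and 5 over the 10 libraries of 6 months. Ccl5, a T cell chemokine, and Cxcl10, an interferon target, rose by 1.05 ± 0.30 and 0.99 ± 0.29. Without the 3 libraries high in liver transcripts, 8 of the 28 were called. Of 10 T and NK cell genes, 5 rose and all 10 changes were above 0 (median 0.85). Cd2, an adhesion receptor of T cells, rose by 1.38 ± 0.28, the killer cell genes Klrd1, Nkg7 and Prf1 (perforin) by 1.1 ± 0.33, 1.08 ± 0.33 and 1.01 ± 0.25, and Cd4 by 0.63 ± 0.13. The summed level of this list was 9.04 to 13.6 CPM at 6 months and 13.3 to 20.0 CPM at 18 months. Of the B cell and neutrophil lists, 2 genes each were tested, of which Cd22 and Csf3r were called (0.78 ± 0.24 and 0.67 ± 0.23). Both of these calls ended without the 3 libraries, and those of Csf3r and Nkg7 also when single libraries were left out.

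Antigen presentation moved by smaller steps. B2m, the invariant chain of MHC class I, went from 7.52, 7.78 and 8.17 to 8.07, 8.63 and 9.01, with 10 of 11 libraries above the 6-month range and a rise of 0.80 ± 0.11 (limma adjusted p = 2.5e-07). It was 1 of 4 upregulated among 21 class I genes (median 0.26), the others being RT1-A1, RT1-CE5 and RT1-CE16, members of a multigene family whose reads could be shared. In the class II list, 3 of 10 were upregulated, Cd74 (the invariant chain) by 0.59 ± 0.12, RT1-Da by 0.59 ± 0.12 and RT1-Ba by 1.05 ± 0.36. Of 42 interferon response genes, 3 were upregulated, against 3.63% of all genes, with a median of 0.22. They were Cxcl10, Ifi27l2b (0.82 ± 0.23) and Ifi47 (0.62 ± 0.14). The calls of Cd74, RT1-Da, RT1-Ba, RT1-CE16 and Ifi47 ended when single libraries were left out, and those of Cd74 and RT1-Da also without the 3 libraries.

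Among the falls, collagens led. Of 24 tested, 5 were downregulated and none upregulated, with a median of -0.33. Col1a1 and Col1a2 encode the chains of type I collagen, the bulk of the fibrous matrix. Col1a1 measured 9.76, 10.08 and 10.81 at 6 months and 8.17, 8.43 and 8.87 at 18 months, and fell by 1.64 ± 0.19 (limma adjusted p = 7.0e-09). Col1a2 measured 9.45, 9.80 and 10.27 and 8.25, 8.46 and 8.78, and fell by 1.29 ± 0.17 (limma adjusted p = 3.9e-08). In both genes every 18-month library lay below every 6-month library. The fibril partners Col11a1 and Col11a2 fell by 0.74 ± 0.15 and 0.77 ± 0.15, and Col2a1, the cartilage collagen, by 0.74 ± 0.26 at a low level, a call that ended when single libraries were left out and without the 3 libraries. Col3a1 also did not overlap between the ages, but its change of -0.50 ± 0.13 was under 1.5-fold (limma adjusted p = 0.0044).

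Among 48 other matrix genes, 3 fell and 3 rose (median 0.03). Sparc, a matrix protein that helps collagen assembly, had the smallest adjusted p of all falls. It measured 8.91, 9.21 and 9.38 at 6 months and 8.07, 8.34 and 8.56 at 18 months and fell by 0.89 ± 0.09 (limma adjusted p = 2.7e-11), with no overlap. Fbn2 (fetal fibrillin) and Adamts4 (a proteoglycan-cutting enzyme) fell by 0.91 ± 0.19 and 0.80 ± 0.28. In the other direction, Ltbp1, which stores latent TGF-beta, rose by 0.86 ± 0.12 (limma adjusted p = 5.8e-07), Loxl1, a crosslinker of elastin, by 0.73 ± 0.16 and Aspn, a small proteoglycan, by 0.59 ± 0.19. The calls of Adamts4 and Aspn ended when single libraries were left out and without the 3 libraries. Of the 8 tendon genes, Cilp2 fell by 0.97 ± 0.18 (limma adjusted p = 6.7e-05). The tendon list summed to 842 to 1237 CPM at 6 months and 676 to 919 CPM at 18 months, with none of its genes at 0, and its part in the fall of collagens was not tested. Of 11 fibroblast genes, 1 was called, Pi16, which rose by 0.75 ± 0.13, and the list summed to 1429 to 1809 and 1474 to 1991 CPM.

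Among other falls, Tfrc encodes the transferrin receptor, which takes up iron. It measured 7.91, 8.57 and 8.85 at 6 months and 7.01, 7.25 and 7.67 at 18 months (change -1.24 ± 0.15, limma adjusted p = 1.2e-08), without overlap. Snph (syntaphilin, which anchors mitochondria in axons) fell by 1.02 ± 0.13, also without overlap (limma adjusted p = 2.5e-08), and Cpz, a secreted carboxypeptidase, by 1.17 ± 0.24. Of 39 ion channel genes, the potassium channels Kcnc1 and Kcna1 fell by 1.00 ± 0.17 and 0.68 ± 0.19. Kcnn3 (a calcium-activated potassium channel) and Cacna1e (a calcium channel) rose by 0.83 ± 0.13 and 0.93 ± 0.33, the latter a call that ended when single libraries were left out and without the 3 libraries. Irs1, which relays the insulin signal, fell by 0.76 ± 0.13, and Sema7a, a guidance cue, by 0.93 ± 0.18, the 1 called gene among 46 of axon guidance. In the integrated stress response Chac1 and Aldh1l2, of 19 genes tested fell by 1.09 ± 0.26 and 0.69 ± 0.18. In the Schwann cell list, the myelin protein Mbp changed by -0.54 ± 0.14, under the fold limit. Its highest 6-month library was replicate 7 (4.51). Cnp, an enzyme of myelin-forming cells, rose by 0.63 ± 0.15, a call that ended with the slow fibre score as a covariate, and S100b had a change of 0.00 ± 0.13. The summed Schwann list was 85.0 to 149 CPM at 6 months and 85.5 to 106 CPM at 18 months.

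Among other rises, Ctxn3, a small membrane protein, measured -0.81, 0.66 and 0.91 at 6 months and 2.45, 3.36 and 4.58 at 18 months, without overlap, and rose by 3.16 ± 0.37 (limma adjusted p = 4.3e-09). Tdrkh, a Tudor protein, had the smallest adjusted p of all rises (1.55 ± 0.15, limma adjusted p = 2.7e-11), moving from -0.86, -0.05 and 0.58 to 1.08, 1.40 and 1.6. Adra1b, an adrenaline receptor, rose by 3.40 ± 0.70, from 1 to 9 reads in a 6-month library to 24 to 114 in an 18-month one. Ppp1r14c (an inhibitor of a phosphatase) and Cd28 (a costimulator of T cells) rose by 2.35 ± 0.43 and 2.15 ± 0.35 without overlap. Faah (which breaks down anandamide, listed on 2 lines with the same counts) rose by 2.17 ± 0.51, and Klk1c7, of a family of near-identical kallikreins, by 2.83 ± 0.58. Igf2, a fetal growth factor, went from 6.77, 7.0 and 7.15 to 7.45, 7.87 and 8.45 (change 0.96 ± 0.16, limma adjusted p = 1.9e-05) with no overlap. Its imprinted neighbour H19, a noncoding RNA chosen after its values were seen, went from 11.63, 11.94 and 12.64 to 12.44, 12.78 and 13.60, a rise of 0.96 ± 0.15 (limma adjusted p = 3.8e-06). Scd1, which makes monounsaturated fatty acids, rose by 2.60 ± 0.40 (limma adjusted p = 2.6e-06), from 0.95, 1.63 and 3.48 to 3.36, 4.25 and 5.56. It was the 1 rise among 27 lipid synthesis genes, of which Pnpla3 and G0s2 fell by 1.07 ± 0.21 and 0.86 ± 0.25, the latter a call that ended without the 18-month replicate 3 alone and without the 3 libraries.

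Stress genes rose singly. Hmox1 (heme oxygenase) went from 1.21, 1.76 and 2.48 to 2.49, 3.16 and 4.20 without overlap (change 1.40 ± 0.23, limma adjusted p = 1.2e-05), and it and Gsta1, a glutathione transferase (0.95 ± 0.12), were the 2 calls among 24 antioxidant genes. Sat1, which breaks down polyamines, rose by 0.99 ± 0.19. The metallothionein Mt1a rose by 1.41 ± 0.44 (limma adjusted p = 0.0226), which was lost without the 3 libraries high in liver transcripts (limma adjusted p = 0.117), and Mt2A changed by 0.86 ± 0.37. Of 24 immediate early genes, which respond within minutes to stimulation, Fosl1, Junb and Myc were upregulated (1.85 ± 0.42, 0.87 ± 0.18 and 0.79 ± 0.20) and all 24 changes were above 0. The ubiquitin ligases of muscle wasting, Trim63 (MuRF1) and Fbxo32 (atrogin-1), changed by 0.16 ± 0.10 and 0.06 ± 0.11, and among 14 atrophy genes Fbxo30 and Ctsl (cathepsin L) were called (0.78 ± 0.19 and 0.61 ± 0.13). Both of these calls ended without the 3 libraries, and that of Ctsl without replicate 3 or 5 of 18 months alone.

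Genes of energy supply and protein turnover were close to level. None of 74 genes of the respiratory complexes was called, and all 74 changes were below 0, with a median of -0.17 (-0.08 under total-count scaling). The largest were Ndufb4 of complex I at -0.39 ± 0.13 and Cox6a2 of complex IV at -0.31 ± 0.09. No gene was called among 20 of the citric acid cycle, 37 of fatty acid oxidation, 76 ribosomal proteins, 31 proteasome subunits and 25 heat shock genes, with medians from -0.16 to 0.02, of which those of fatty acid oxidation, ribosomal proteins and the proteasome turned positive under total-count scaling. Among the members with the largest changes there were Pdk4 (0.45 ± 0.23) and Pdk2 (-0.31 ± 0.10), kinases that gate the entry of pyruvate, Cpt1a (0.55 ± 0.14), which admits fatty acids to mitochondria and the chaperones Hspa1l (-0.25 ± 0.09) and Hspb8 (0.23 ± 0.09). In glycolysis 1 of 36 was called, Ppp1r3c, which targets a phosphatase to glycogen and fell by 0.61 ± 0.17, a call that ended when single libraries were left out and without the 3 libraries. None of 16 endothelial genes was called and all 16 changes were below 0 (median -0.27, and -0.18 under total-count scaling). Their summed level was 663 to 761 CPM at 6 months and 508 to 653 CPM at 18 months. These ranges did not overlap but lay close together, and whether they stay apart under another scaling was not tested. The largest changes of the list were those of Apln, an endothelial peptide (-0.53 ± 0.16), and Robo4, a receptor of vessels (-1.70 ± 1.25). Of 13 adipocyte genes Cidea, a lipid droplet protein, rose by 0.86 ± 0.22, and of 6 red cell genes none was called.

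The transcription factors and signals that earlier results of these data name were read for the same step. Stat3, which relays cytokine signals, changed by 0.24 ± 0.05 (limma adjusted p = 0.0011), under the fold limit. Esrra, a driver of mitochondrial genes, changed by -0.13 ± 0.13, Nfyb by 0.01 ± 0.07, Bcl3 by 0.40 ± 0.15, Cebpa by 0.35 ± 0.14 and Runx3, of lymphocytes, by 0.76 ± 0.36, none of them called. Cish, a feedback target of growth hormone signalling, measured 1.46, 5.60 and 7.0 at 6 months and 1.18, 4.45 and 5.99 at 18 months, and its change of -1.49 ± 0.62 did not pass (limma adjusted p = 0.0994). This rested on 1 library, since without the 6-month replicate 3, the lowest of its age, Cish was called lower (change -1.93, limma adjusted p = 0.0208).

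Clock genes moved in opposite directions. The circadian clock is a loop in which Bmal1 (Arntl in these files) with Clock or Npas2 drives Per, Cry, Ciart and Dbp. The products of Per, Cry and Ciart repress it in turn, and that of Dbp is itself an activator of transcription, so that the drivers and their targets peak at different hours. Of 15 tested, Ciart and Dbp were upregulated and Arntl, Nfil3 and Npas2 downregulated. Ciart measured -1.15, 1.12 and 3.46 at 6 months and 1.86, 3.02 and 3.87 at 18 months (change 1.64 ± 0.41, limma adjusted p = 0.0036). Dbp measured 3.99, 5.31 and 6.63 and 6.15, 6.72 and 7.30 (change 1.21 ± 0.26, limma adjusted p = 5.9e-04). The 6-month libraries were widely spread in both genes and their highest lay within the 18-month range. Arntl fell by 1.00 ± 0.20, from 4.15, 5.11 and 5.68 to 3.34, 3.92 and 4.92, Nfil3, a repressor that opposes Dbp, by 0.87 ± 0.19 and Npas2 by 0.63 ± 0.18 (limma adjusted p = 3.2e-04, 0.0011 and 0.0138). Per2 changed by 0.56 ± 0.21, under the fold limit, and was called under 11 alternatives, edgeR and DESeq2 among them. The Npas2 call ended without the 3 libraries high in liver transcripts and when single libraries were left out. Rats of each age were killed over a span of hours on 1 day, and the hour of each library is not in the labels, so age, day and hour cannot be told apart here.

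The promoter of Ciart is shown because the complex of Bmal1 with Clock binds the E-box CACGTG. It lies at chr2:186112197-186112496 (GRCr8, minus strand, RefSeq), and capitals mark the motif.
Ciart: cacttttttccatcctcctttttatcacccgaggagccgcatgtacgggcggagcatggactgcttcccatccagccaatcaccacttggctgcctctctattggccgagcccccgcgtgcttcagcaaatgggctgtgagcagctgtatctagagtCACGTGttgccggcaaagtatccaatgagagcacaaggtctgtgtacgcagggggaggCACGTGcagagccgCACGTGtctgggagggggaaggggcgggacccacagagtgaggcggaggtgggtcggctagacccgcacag
CACGTG occurred 3 times in this window. It was found in 4 of 15 promoters of the tested clock genes and in 6.42% of all promoters of this length.

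**Figure D4:**
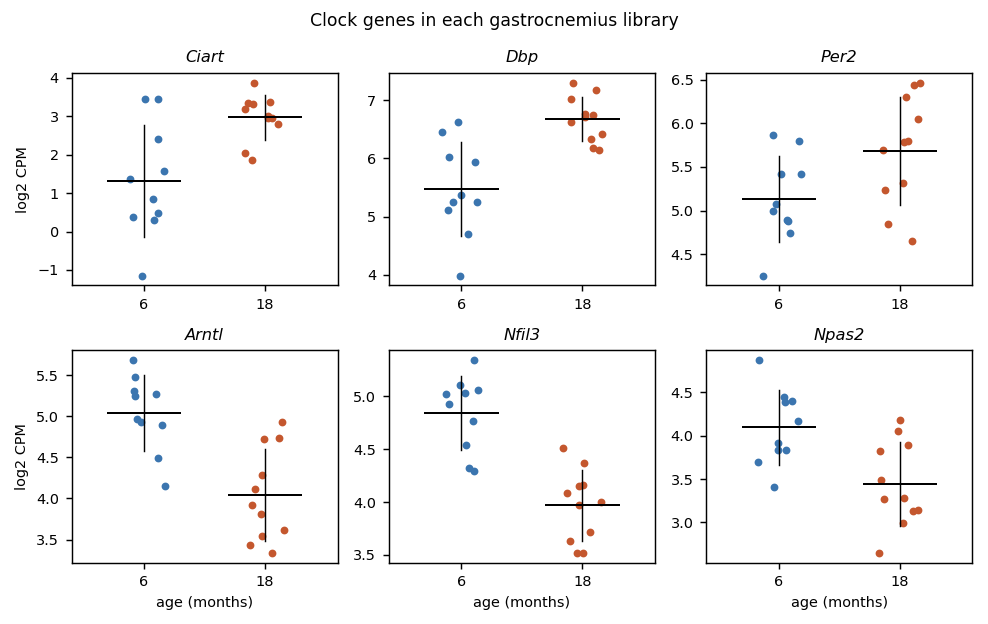
Log2 CPM (y axis) of 6 clock genes in each library at 6 and 18 months (x axis), with the mean and 1 SD in black. Ciart and Dbp sit higher and Arntl, Nfil3 and Npas2 lower at 18 months with overlapping ranges, and Per2, which was not called, overlaps most.

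Of 7 tested liver genes, 3 were upregulated, Apob and Fga from very low levels. Apob, a lipoprotein of liver and gut, had 11 reads over the 6-month libraries, 6 of them at 0, and 394 over the 18-month libraries (change 4.01 ± 1.36, limma adjusted p = 0.0373). Fga (fibrinogen) had 7 and 77 reads, and without the 3 libraries it no longer passed the filter on reads and was not tested. Tf (transferrin, also made outside the liver) rose by 0.67 ± 0.12. Alb, or albumin, measured -5.99, -2.71 and -1.22 and -1.31, 1.13 and 3.92 and was not called (limma adjusted p = 0.0606), although it was under 9 alternatives, edgeR and DESeq2 among them. The list summed to 20.0 to 34 CPM at 6 months, 46.6 to 71.9 in replicates 3, 5 and 9 of 18 months and 32.9 to 51.0 in the other 8. The Apob and Fga calls also ended when single libraries were left out. Without the 3 libraries, 1 of the liver genes was called (Tf), and over all genes 356 rises and 54 falls were called.

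In the second part of this span, from 12 to 18 months, 78 genes (0.657%) were upregulated and 10 (0.0843%) downregulated. The same 9 neuromuscular junction genes were among the rises. This comparison uses the same 18-month libraries, among them the 3 high in liver transcripts, which were also highest in Chrna1. Whether these 9 genes stayed called at this step without those 3 is not given here. These counts depended on single libraries. They were 22 and 1 without the 3 libraries high in liver transcripts, 130 and 13 without the 12-month replicate 2, and 40 and 6 without the 12-month replicate 4, with the rest given in the section on processing. The comparisons share libraries, and their values are set side by side. Chrna1 was 0.22 ± 0.31 at 12 against 6 months and 1.83 ± 0.28 at 18 against 12 months, and Runx1 0.43 ± 0.24 and 1.37 ± 0.22. For these genes the later step had the larger value, and the difference between the steps was not tested. In Col1a1 the order was opposite, at -1.21 ± 0.20 and then -0.43 ± 0.18, and in Sparc, at -0.60 ± 0.09 and -0.29 ± 0.09. No collagen was called between 12 and 18 months. Gucy2g, a receptor guanylyl cyclase, had its whole rise by 12 months (0.87 ± 0.11, then 0.07 ± 0.10), while Sln was called at both steps (1.6 ± 0.38 and 1.30 ± 0.26). Tfrc was -0.57 ± 0.15 at the first step, under the fold limit, and fell by 0.66 ± 0.14 at the second. Among macrophage genes, Gpnmb alone was called between 12 and 18 months (1.1 ± 0.26), and among complement genes C3, C4a, C4b and C6 were. Tmem158, Lrtm2 and Serpina12 also rose most after 12 months (2.33 ± 0.45, 2.61 ± 0.51 and 2.24 ± 0.54), as did Adra1b (3.29 ± 0.66). Raver2, an RNA-binding protein, fell after 12 months (-0.64 ± 0.14, against -0.09 ± 0.13 before).

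**Figure D5:**
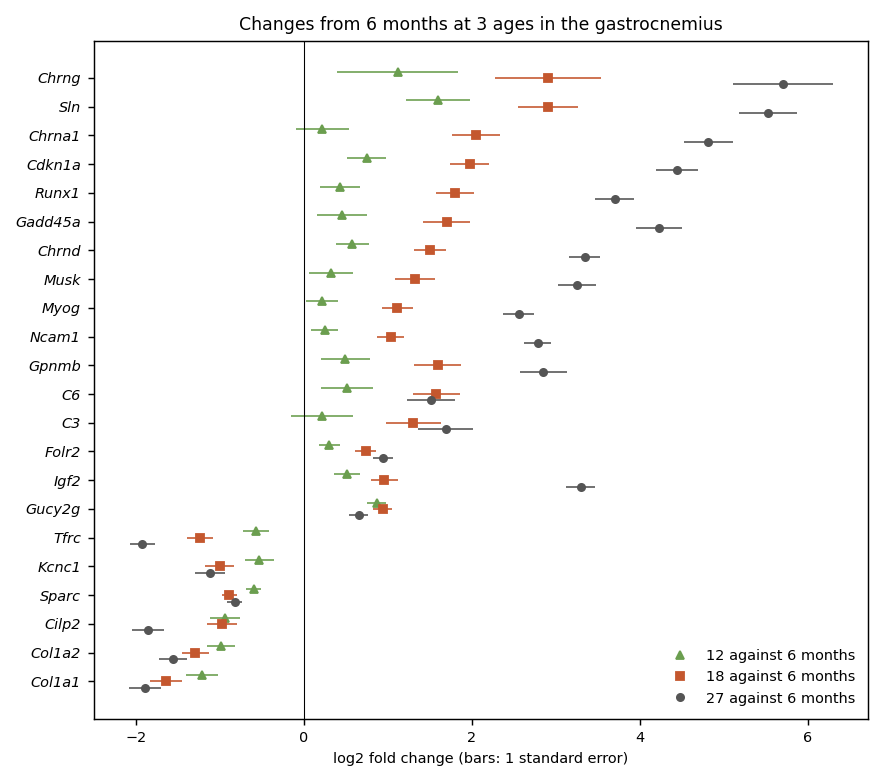
Log2 fold change against 6 months (x axis) of 22 genes (y axis) at 12 months (triangles), 18 months (squares) and 27 months (circles) in the gastrocnemius, with bars of 1 SE. All 3 comparisons share the 6-month libraries. Chrna1 and Runx1 lie within 0.5 of 0 at 12 months and far to the right at 27 months, whereas Gucy2g and Cilp2 are near their 18-month values by 12 months and Col1a1 and Sparc are most of the way there.

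From 18 to 27 months, 948 genes (7.99%) rose and 445 (3.75%) fell, so that 68.1% of calls were rises. Scaled by total counts, the median of all genes moved to 0.22 and 88.1% of calls were rises, 1695 against 230. Relative to the median of all genes, the neuromuscular junction list continued, with 12 of 21 genes upregulated and Ache downregulated. Chrna1 rose by a further 2.77 ± 0.25, Cdkn1a by 2.46 ± 0.24 and Sln by 2.63 ± 0.20. Hdac4, just under the limit at 18 months, was then 1.40 ± 0.14 higher, and Chrne, not called at 18 months, was 1.03 ± 0.13 higher. Myh4 was -1.22 ± 0.18 at this step and was called lower. Of the 15 macrophage genes raised at 18 months, Gpnmb was again called (1.25 ± 0.25), and the list had a median of 0.23, against 0.64 from 6 to 18 months. Type I collagen was not called after 18 months (Col1a1 -0.25 ± 0.18), nor was Sparc (0.07 ± 0.09).

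Whether the change from 6 to 18 months differed from that of the tibialis anterior, the fast muscle at the front of the shin, was tested gene by gene in 1 model. The running numbers of the sample descriptions, whose meaning is not given, kept the muscles apart. In the tibialis anterior those of 6 and of 18 months each formed 1 unbroken run, unlike in the gastrocnemius. Ribosomal RNA was 0.437% to 5.31% and 0.481% to 5.11% of gastrocnemius counts at 6 and 18 months. In the tibialis anterior it was 0.217% to 0.405% and 0.367% to 0.617%. Muscle and any such difference between the sets cannot be told apart. Of 12142 genes, 71 (0.585%) had a higher and 9 (0.0741%) a lower change in the gastrocnemius. Col1a1 fell by 1.64 ± 0.19 in the gastrocnemius and had a change of -0.66 ± 0.19 in the tibialis anterior, and the difference of -0.98 ± 0.30 was called (limma adjusted p = 0.0477). Hook1, a cargo adaptor, changed by 1.09 ± 0.19 in the gastrocnemius and 0.20 ± 0.13 in the tibialis anterior (difference 0.90 ± 0.21, limma adjusted p = 0.0265). S100b, a Schwann cell protein, changed by 0.00 ± 0.13 and 0.91 ± 0.14 (difference -0.90 ± 0.19, limma adjusted p = 0.0183). Fanca, of DNA repair, and Tox2, of lymphocytes, also had lower changes in the gastrocnemius (differences -1.18 ± 0.34 and -1.08 ± 0.28), rising by 1.46 and 1.31 in the tibialis anterior, and so did Mbp (-0.66 ± 0.20). Zfp40, Ift74, Fmr1 and Esm1 had higher changes in the gastrocnemius (differences 1.08, 1.01, 0.97 and 0.91), where none was called, and fell in the tibialis anterior by 0.94, 0.64, 0.73 and 0.94. None of the denervation genes was called in this test. The difference in Chrna1 was 0.52 with a 95% interval from -0.37 to 1.41, that in Chrnd -0.20 (-0.88 to 0.49), that in Runx1 -0.27 (-0.98 to 0.43) and that in Cdkn1a 0.15 (-0.65 to 0.96). These intervals are wide and do not show that the muscles changed alike. The 80 calls depended on the test, and edgeR's quasi-likelihood test called 8 higher and 5 lower.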

How the data were processed

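Total RNA of 4 muscles of male rats was sequenced after ribosomal RNA depletion, and the 11 and 10 gastrocnemius libraries of 18 and 6 months were compared. The authors deposited raw read counts per gene, made with ArrayStudio (OmicSoft) from alignments to rat reference B6.0 and a gene model of their own derived from RefSeq. The 17870 lines were summed to 17315 symbols, since 494 symbols stood on 1049 lines. Total counts per library ran from 26130606 to 85316329, and reads without molecular identifiers are not independent molecules. Genes were filtered with filterByExpr (minimum count 10, minimum total 15), scaled by TMM in edgeR 4.0.16 and fitted with limma-voom 3.58.1 (R 4.3.3) over all 7 ages of the gastrocnemius, with age as the only term. The difference from the tibialis anterior was fitted over both muscles. Calls needed a Benjamini-Hochberg adjusted p under 0.05 and over 1.5-fold, and levels used a prior count of 0.5. The fit was tested on simulated data. Alternatives were RLE size factors, total-count scaling, no filter, edgeR, DESeq2 1.42.0, Bonferroni, 2-fold, sample quality weights, a replicate block, the running number, rRNA share and slow fibre score as terms, 2 ages only, and libraries left out. Soleus and diaphragm were not used here. The members, gene lists and tests were chosen with earlier results of these data known. The text names, by a rule, the 10 largest rises and falls (mean log2 CPM over 0), the 5 smallest adjusted p in each direction, called list members (at most 6 a list, or the 2 largest changes of a list with none), the 5 largest differences between muscles in each direction, genes called from both 6 and 12 months, genes that earlier results name, and label checks. Ache, Agrn, Alb, Cd68, Chrnb1, Chrne, Col3a1, H19, Lrp4, Myog, Pax7, Per2 and Rapsn fall outside the rule and were chosen after their values were seen. Some genes that counts include are not reported here by name. Promoters are RefSeq sequences of GRCr8.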

Additional observations from a re-analysis of the deposited data

Results flagged for a closer look

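In 14 of the 160 genes named, 1 of the 10 libraries of 6 months stood apart from the other 9 by Dixon's gap test. Chance alone passes this test in about 1 of 20 groups, so some of the 14 could arise by chance. Levels are in log2 CPM, followed by the nearest other library. The groups of 11 libraries of 18 months were not tested in this way. Replicate 5 had the highest Chrna1 level (4.10, next 3.27). Replicate 7 had the highest level of the myelin gene Mbp (4.51, next 3.44) and the lowest of Cd2 (-4.18, next -2.84). Replicate 0 was highest in Junb (5.98, next 4.93) and Ctsl (5.98, next 5.76) and lowest in Tmem8c (-4.47, next -1.53) and RT1-CE16 (-2.59, next -0.92). Replicate 3 was highest in Adamts4 (2.06, next 0.84) and lowest in Cish (1.46, next 4.28) and Sparc (8.91, next 9.14). Replicate 6 was lowest in Bbc3 (-1.44, next -0.70) and Ccl5 (-5.68, next -3.18), replicate 8 lowest in C6 (-1.0, next 0.28) and replicate 9 highest in Cxcl10 (0.20, next -0.95). The low values of Ccl5, Cd2 and Tmem8c rest on few reads.

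The change from 6 to 18 months differed from that in the tibialis anterior, by a test of the difference itself, in 10 named genes. The difference, gastrocnemius minus tibialis anterior, was -1.18 in Fanca, -1.08 in Tox2, -0.98 in Col1a1, -0.90 in S100b and -0.66 in Mbp, and 1.08 in Zfp40, 1.01 in Ift74, 0.97 in Fmr1, 0.91 in Esm1 and 0.90 in Hook1 (limma adjusted p from 0.0183 to 0.0477). For Mbp, the 6-month gastrocnemius replicate 7 was the library that stood apart, and its part in the difference was not tested.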

How the results depend on the processing

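For 18 against 6 months, the 431 rises and 82 falls became 97 and 28 with Bonferroni adjustment and 165 and 18 past 2-fold. Total-count scaling left 45 falls, and leaving out the 18-month replicates 3, 5 and 9 (an alternative chosen after seeing the data) left 54. All other alternatives for this comparison kept both counts within 1.5 times, and leaving out 1 library at a time gave 380 to 481 rises and 63 to 83 falls.

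For 18 against 12 months, the 78 rises and 10 falls became 14 and 0 with Bonferroni adjustment, 38 and 1 past 2-fold, and 22 and 1 without the same 3 libraries. DESeq2 called 131 rises and sample quality weights 201. Leaving out 1 library at a time gave 40 to 130 rises and 3 to 13 falls. The rises were 130 without the 12-month replicate 2, 40 without replicate 4 and 48 without replicate 8 of that age, and 41 and 50 without the 18-month replicates 3 and 4. The falls were 5 without the 12-month replicates 3, 8 or 10, 6 without replicate 4 of that age, and 3, 5 and 6 without the 18-month replicates 3, 4 and 5.

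For 27 against 18 months, the 948 rises and 445 falls became 537 rises with Bonferroni adjustment, 383 and 134 past 2-fold, and 1695 and 230 with total-count scaling. Leaving out 1 library at a time gave 848 to 1016 rises and 385 to 534 falls. For the difference from the tibialis anterior, the 71 higher and 9 lower became 0 and 0 with Bonferroni adjustment, 4 and 5 past 2-fold and 8 and 5 with edgeR, and total-count scaling left 4 lower.

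With the replicate number of the labels as a block, 450 rises and 78 falls were called at 18 against 6 months, and 80 higher and 16 lower in the difference from the tibialis anterior. Nothing in the labels says that a number marks a shared animal or day. Over the 10 same-numbered pairs of 6 and 18 months the deviations from the group means correlated from -0.395 to 0.774, 4 of them over 0.1, and 1 of the 18-month libraries correlated best with its own number, so the numbers were not taken to pair libraries.

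Of 160 genes named, 48 kept their call under every alternative. The stretches of the running number, whose meaning is not given, were uneven over the ages. All libraries of 12 months and most of 18 months lay in the first stretch, and most of 6 months in the third. Stretch and age were thus partly confounded, and their effects cannot be fully told apart. The stretch of the running number as a term ended 10 calls (Adamts4, Apob, Aspn, Bbc3, Col2a1, Ctsl, Fga, G0s2, Mt1a and Nkg7), and so did the slow fibre score (Adamts4, Apob, Aspn, Cacna1e, Cnp, Csf3r, Fga, Myh3, Ppp1r3c and RT1-Ba). Total-count scaling ended those of Adamts4, Col2a1, Npas2 and Ppp1r3c, no filter those of Adamts4, Cacna1e, Col2a1 and RT1-Ba, the replicate block those of Aspn, Cacna1e and RT1-Ba, edgeR those of Fga and Ifi47, DESeq2 these and Myh3, 2 ages only those of Adamts4 and Csf3r, and the rRNA share that of RT1-Da. In the other direction, Hdac4 was called under 22 alternatives, Per2 under 11, Alb under 9, Cpt1a under 7, Mbp and Mt2A under 3 each, and Cish, Myh2, Pdk4 and Runx3 under 1 each. The genes that changed sign were not called in either fit, most of them with changes near 0. Myh7 with the slow fibre score as covariate had limma adjusted p = 0.0139 but stayed under the fold limit. Under total-count scaling Ache was 0.080, Chrne 0.086, Esm1 0.067, Lrp4 0.029, Myh4 0.047, Pax7 0.0049 and S100b 0.090. With the slow fibre score as covariate Ache was 0.081, Myh4 0.20, Myh7 -0.24 and S100b 0.021. That score was the mean level of the slow fibre list, which holds Myh7 itself and Sln, called higher at 18 months. Adjusting for the score can thus also take out part of the difference between the ages, and calls it ended cannot be read as fibre type. With the stretch of the running number in the sample descriptions as a term, Chrne was 0.0015, Fbxo32 -0.016, Fmr1 -0.0014, Nfyb -0.020, Rapsn -0.0065, S100b 0.0068 and Zfp40 -0.13. With only the 2 ages in the fit Ache was 0.0034, Chrne 0.0062 and S100b 0.012. Without the 3 libraries Ache was 0.048, Fbxo32 -0.00076, Nfyb -0.041 and S100b 0.12. S100b was also 0.00061 with RLE size factors, 0.0021 with edgeR, 0.0071 with DESeq2 and 0.026 with sample quality weights, Ache 0.00087 with DESeq2, Nfyb -0.014 with sample quality weights and Chrne 0.0019 with the rRNA share as covariate. Leaving out 1 library at a time, Ache ran from -0.037 to 0.022, Chrne from -0.025 to 0.021, Esm1 from -0.29 to 0.10, Nfyb from -0.032 to 0.052, S100b from -0.065 to 0.069 and Zfp40 from -0.018 to 0.23.

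Leaving out 1 library ended the call of G0s2 (18-month replicate 3), Myh3 (6-month replicate 5), Ctsl (18-month replicates 3 or 5), Nkg7 (6-month replicates 1 or 3), RT1-CE16 (6-month replicates 0 or 5), Ifi47 (18-month replicate 8 or 6-month replicates 1 or 3), Cd68 (18-month replicates 3 or 6 or 6-month replicates 1 or 3) and Npas2 (18-month replicates 5 or 8 or 6-month replicates 3 or 5). Over all libraries left out in turn, their changes ran from -0.95 to -0.71 (G0s2), 0.79 to 0.92 (Myh3), 0.54 to 0.66 (Ctsl), 0.91 to 1.22 (Nkg7), 0.58 to 0.94 (RT1-CE16), 0.55 to 0.71 (Ifi47), 0.58 to 0.67 (Cd68) and -0.71 to -0.53 (Npas2). Any of more than 4 libraries did so for Adamts4 (-0.92 to -0.61), Apob (3.68 to 4.32), Aspn (0.52 to 0.68), Bbc3 (0.59 to 0.75), Cacna1e (0.76 to 1.05), Cd74 (0.56 to 0.65), Col2a1 (-0.83 to -0.60), Csf3r (0.56 to 0.78), Fga (2.22 to 2.58), Ppp1r3c (-0.64 to -0.56), RT1-Ba (0.90 to 1.13) and RT1-Da (0.56 to 0.63). Reads limit the genes under about 1 CPM, such as Cdkn2a, Apob, Fga and the chemokines, and the cause of these changes was not tested.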

Other observations

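The ages between and beyond gave levels that belong to no comparison above. Median Chrna1 levels (log2 CPM) were 2.97 at 9 months, 3.22 at 12, 6.22 at 21, 7.94 at 24 and 8.14 at 27 months. Those of Sln, the calcium pump regulator, were 1.33, 2.05, 4.02, 5.83 and 6.15 at the same ages. Col1a1, of type I collagen, had medians of 9.85, 8.93, 8.10, 7.72 and 8.22. The guanylyl cyclase Gucy2g had 3.73, 3.99, 4.20, 3.48 and 3.78, with the highest median at 21 months.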
